A study of Mus musculus with 2 samples.

Results

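Matricellular proteins are secreted proteins that sit in the extracellular matrix without being part of its fibrils. The 10 described here, taken by gene symbol from the deposited gene list, are set out across the cell types of a mouse pancreatic tumor: the thrombospondin genes Thbs1, Thbs2 and Thbs4, the periostin gene Postn, the tenascin gene Tnc, Sparc, the CCN genes Ccn1, Ccn2 and Ccn3, and Spp1, which encodes osteopontin. All 10 were found among the 19059 genes measured. They bind integrins, CD47, CD44, syndecans, collagens or growth factors, and so tune how cells adhere, migrate and respond to growth factors. In adult tissue most are scarce and appear during wound repair. In pancreatic ductal adenocarcinoma they are abundant in the desmoplastic stroma, which cancer-associated fibroblasts build, and osteopontin is also made by carcinoma cells and macrophages. Ccn1 and Ccn2 are standard targets of the mechanosensitive coactivator YAP and its DNA-binding partners, the TEAD factors.

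The series compares orthotopic KPC pancreatic tumors of mice given the vehicle DMSO or EIPA at 10 mg/kg. KPC is a widely used mouse model of pancreatic cancer, and EIPA, an amiloride derivative, inhibits sodium-proton exchange and macropinocytosis. Each of the 2 samples pooled 4 flash-frozen tumors, which were fixed, dissociated and profiled with a probe-based single-cell assay, so animals cannot be told apart. A number on each cell barcode separates the libraries, but no label ties that number to a treatment. The text therefore speaks of library 1 and library 2, and nothing is said of which one received EIPA. With a single library behind each number, no difference can be tested. The question of the series is how macropinocytosis bears on fibroblast subtypes in this cancer, and several of the genes described here mark such subtypes.

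Library 1 held 12337 cells (203459556 unique molecular identifiers, UMIs, median 11695 per cell) and library 2 held 11945 (185474400, median 10756). After filters and doublet removal 11115 and 10785 cells were used, and 225 barcode sequences occurred in both libraries. Cells were assigned to a type by their share of marker UMIs. The epithelial gate, which takes in the carcinoma cells, held 7912 and 7319 cells, the fibroblast gate 327 and 379, the macrophage gate 487 and 554 and the blood endothelial gate 124 and 100. The mural gate (pericytes and vascular smooth muscle, 29 and 36 cells), the neutrophil gate (31 and 51) and the T-cell gate (48 and 167) are smaller, and 2098 and 2033 cells fell in no gate. Of the markers used, 8 of 9 epithelial, 7 of 10 fibroblast and 5 of 5 mural genes stood highest in their own gate in both libraries. So did 11 of 11 endothelial, 9 of 9 macrophage, 7 of 7 neutrophil and 8 of 8 T-cell genes. The same markers set the gates, so these counts are no independent check. The mural gate used 5 of 7 listed markers and the macrophage gate 9 of 11. Gates are ranges of a score: in the fibroblast gate 15 and 18 cells lay less than 25% above the threshold and 22 and 26 less than 25% below it. Macrophage-gated cells numbered 26 and 27 in that margin, against 32 and 29 below it. Levels are in CPM, a gene's share of the summed UMIs of a gate, with exact 95% Poisson intervals, which cover counting error only. Because the number of probes per gene is not given in the sources used here, levels of different genes are not compared.

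The start-site regions of 4 genes are shown because the results below turn on these genes: Thbs4, Postn and Ccn1, which differ in how they vary among fibroblasts, and Spp1, the member led by epithelial cells. Each holds the 250 bases before the RefSeq transcription start (build GRCm38.p6), written 5′ to 3′ on the gene's strand. Capitals mark the motifs found.
Thbs4 (chr13:92794819-92795068, minus strand): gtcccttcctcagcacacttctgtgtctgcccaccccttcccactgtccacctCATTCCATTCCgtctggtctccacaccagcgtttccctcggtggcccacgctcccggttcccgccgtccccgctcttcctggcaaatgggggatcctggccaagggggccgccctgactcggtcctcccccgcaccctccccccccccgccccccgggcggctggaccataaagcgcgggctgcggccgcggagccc
Postn (chr3:54360857-54361106, plus strand): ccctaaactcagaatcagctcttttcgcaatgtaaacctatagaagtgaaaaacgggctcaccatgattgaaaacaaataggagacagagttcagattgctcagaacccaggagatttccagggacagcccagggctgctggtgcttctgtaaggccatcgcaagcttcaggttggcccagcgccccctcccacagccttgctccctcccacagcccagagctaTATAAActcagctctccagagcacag
Ccn1 (chr3:145649986-145650235, minus strand): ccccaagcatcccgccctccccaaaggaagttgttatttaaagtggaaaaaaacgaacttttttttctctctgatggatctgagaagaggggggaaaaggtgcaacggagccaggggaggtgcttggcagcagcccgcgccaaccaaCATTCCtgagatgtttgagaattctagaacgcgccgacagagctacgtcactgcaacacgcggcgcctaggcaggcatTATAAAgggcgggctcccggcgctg
Spp1 (chr5:104434861-104435110, plus strand): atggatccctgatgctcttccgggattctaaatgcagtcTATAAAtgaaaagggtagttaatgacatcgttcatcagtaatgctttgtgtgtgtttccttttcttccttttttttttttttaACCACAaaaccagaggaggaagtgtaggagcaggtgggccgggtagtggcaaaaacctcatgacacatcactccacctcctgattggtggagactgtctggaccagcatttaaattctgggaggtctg
RefSeq promoters matched 7 of the 10 members (Thbs2, Thbs4, Postn, Tnc, Sparc, Ccn1 and Spp1). The start used for Sparc lay 3103 bases from the annotated start of the gene, against at most 27 bases in the others. Both strands of each window were searched for 4 short motifs. The TEAD motif, spelled CATTCC, occurred in Thbs4 and Ccn1, in Thbs4 as a pair of overlapping copies from base -197 to -187 and in Ccn1 from -103 to -98, against 12.6% of all 32851 promoter windows. The letters TATAAA of the TATA box occurred in 5 of the 7 members against 12.4% of all windows, at any position on either strand. They lay near the start in Postn (-26 to -21) and Ccn1 (-25 to -20), farther away in Tnc and Spp1, and on the opposite strand in Thbs2. No share of windows was counted for the position near the start alone. The RUNX motif, spelled ACCACA and found in 4614 of the 32851 windows, occurred in Spp1 (-128 to -123). The AP-1 motif, spelled TGANTCA and found in 6.75% of windows, occurred in 0 of the 7. These matches describe letters and are not binding sites.

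In fibroblasts most members stood lower in library 2. Of the 10 members, all of which reached 20 CPM in a library, 8 had a log2 ratio (library 2 over library 1, CPM plus 1) below 0, with a median of -0.57 against 0.04 over all 8556 genes at that level. The share of all genes below 0 was not counted. The 8 include Ccn1 (-0.13) and Ccn2 (-0.04, with an interval that included 0). Of the 10, 3 differed 2-fold or more, against 2.51% of the 8556 genes: Thbs4 and Spp1 were lower in library 2 (1.47% of genes were) and Ccn3 was higher (1.04% were). Epithelial markers summed to 1394 and 1437 CPM in this gate and mural markers to 138 and 123 CPM. With epithelial RNA subtracted at the marker median, 4 of the 10 members differed 2-fold. The part of mural transcripts in the ratios was not tested. In endothelial-gated cells 3 of the 6 members that reached 20 CPM differed 2-fold (7.1% of 8546 genes), Thbs1 and Ccn2 higher (4.56% of genes) and Spp1 lower in library 2 (2.54%). In macrophage-gated cells 1 of 6 did (2.02% of 8763 genes), which was Spp1, lower in library 2 (1.26% of genes were lower and 0.765% higher). In epithelial-gated cells 0 of 6 did (0.622% of 8519 genes, with 0.164% lower and 0.458% higher in library 2). The members' medians were 0.15 in endothelial-gated, -0.34 in macrophage-gated and -0.18 in epithelial-gated cells.

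**Figure D1:**
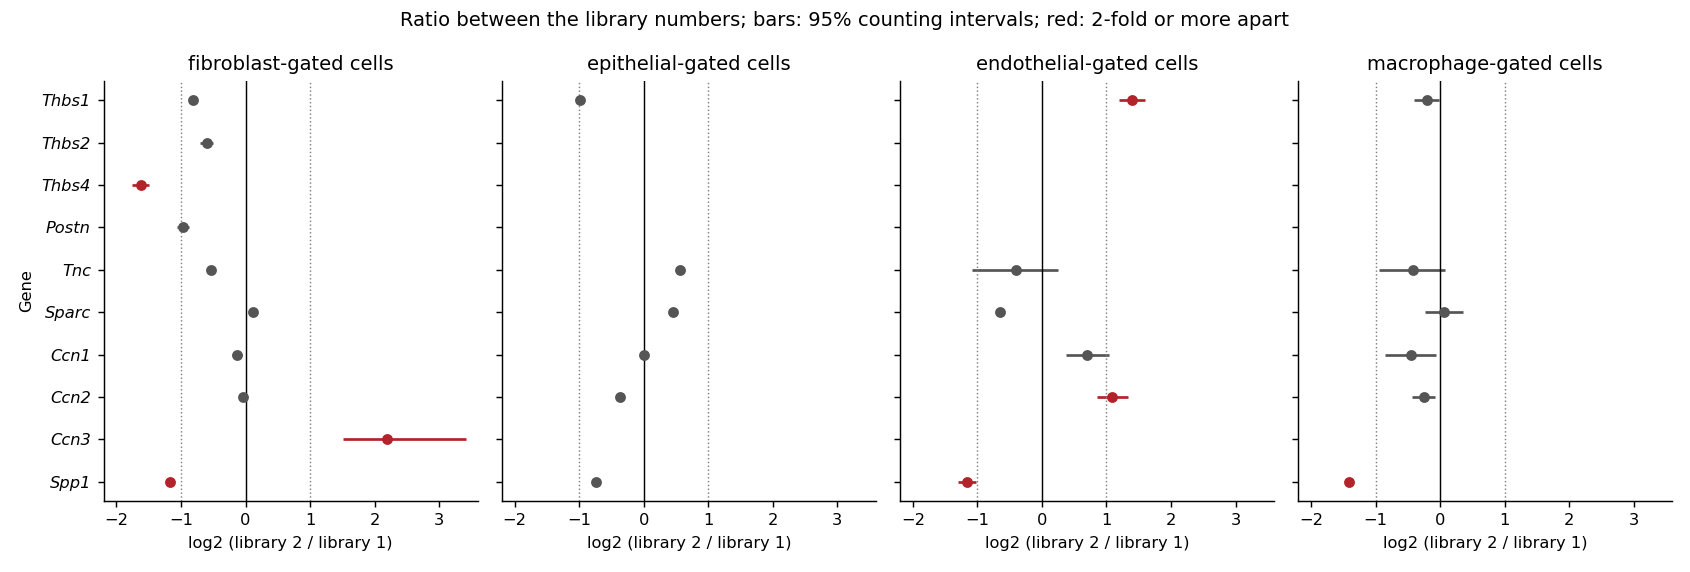
Log2 ratio of library 2 over library 1 for each member that reached 20 CPM, in the 4 gates of at least 50 cells per library. Points are ratios of CPM plus 1, bars are 95% counting intervals, dotted lines mark 2-fold, and red points lie beyond it. Thbs1 lies left of 0 in fibroblast- and epithelial-gated cells and right of it in endothelial-gated cells.

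Among the thrombospondins, Thbs1, which activates latent TGF-β and binds CD47 and CD36, was the most widely spread. It lies at chr2:118111876-118127133 (mm10, plus strand). Its level was highest in fibroblasts, at 2003 CPM in library 1 (interval 1946 to 2061) and 1140.3 CPM in library 2 (1101 to 1181). Mural cells stood at 1935 and 987 CPM, with intervals that overlapped those of fibroblasts in both libraries. Of the mural Thbs1 UMIs, 46.1% and 47.3% lay in 3 cells. Endothelial-gated cells stood at 395 CPM (352 to 442) and 1037 CPM (950.05 to 1129), epithelial-gated cells at 339.5 and 171 CPM, and macrophage-gated cells at 223 and 193 CPM. The endothelial level was thus far below the mural level in library 1, while in library 2 its interval overlapped those of mural cells and fibroblasts. The log2 ratio was -0.81 in fibroblasts, -0.98 in epithelial-gated cells (just inside 2-fold), 1.39 in endothelial-gated cells (interval 1.19 to 1.60) and -0.20 in macrophages, where it turned to 0.32 with a stricter gate. One fibroblast of library 1 held 900 of the 4718 Thbs1 UMIs, and without the 3 highest cells of each library the fibroblast ratio was -0.57. The endothelial ratio was 1.43 without its 3 highest cells and 0.99 in cells thinned to 1000 UMIs.

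The share of endothelial cells with a Thbs1 UMI was higher in library 2, with counting intervals that overlapped once cells were thinned. In cells thinned to 1000 UMIs, 23.9% of 117 endothelial cells of library 1 (exact Clopper-Pearson interval 16.5 to 32.7) and 40.4% of 94 of library 2 (30.4 to 51.05) had a Thbs1 UMI. In T-cell-gated cells, taken as the background, the shares were 2.38% and 2.90% (median 1779.5 and 1563 UMIs per cell against 3297.5 and 3940.5 in endothelial cells). Unthinned, the endothelial shares were 40.3% and 61.0%. Fibroblast markers in the endothelial gate summed to 339 and 427 CPM (10 of 10 detected in each library) against 103821 and 113217 CPM in fibroblasts, and epithelial markers to 1183 and 1236 CPM against 6890 and 6963 CPM in epithelial-gated cells. Mural markers in the endothelial gate summed to 582 and 261 CPM, lower in library 2, with 0 of the 5 at 0 UMIs in library 1 and 1 in library 2. With epithelial RNA subtracted at the marker median, the endothelial Thbs1 ratio was 1.56. Whether fibroblast or mural transcripts take part in that ratio was not tested.

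Thbs2, an antiangiogenic relative that binds matrix metalloproteases for clearance, was led by fibroblasts. It lies at chr17:14665500-14694235 (minus strand) and stood at 846 CPM in fibroblasts of library 1 (809 to 884) and 557 CPM in those of library 2 (529 to 585), a log2 ratio of -0.60. In the epithelial, endothelial and macrophage gates it lay between 2.14 and 10.4 CPM. The fibroblast level was 81.7 times the next of these gates in library 1 and 123 times in library 2. Mural cells stood at 202 and 98.2 CPM, between fibroblasts and the rest, from 32 and 20 UMIs. Fibroblasts held 76.6% and 74.3% of all Thbs2 UMIs of the cells used. Thinned to 1000 UMIs, 47.3% and 30.2% of fibroblasts had a Thbs2 UMI, against 2.38% and 0 of 138 T cells (which allows up to 2.64%).

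Thbs4, a pentameric thrombospondin of tendon, muscle and injured tissue, was found mainly in a minority of fibroblasts, which held 73.3% and 67.0% of its UMIs among the cells used. It lies at chr13:92751590-92794818 on the minus strand. Fibroblasts stood at 715 CPM in library 1 (681 to 750) and 232 CPM in library 2 (214 to 250.3), a log2 ratio of -1.62 (-1.76 to -1.49). Epithelial-gated cells stood at 1.79 and 0.939 CPM and macrophages at 2.42 and 2.27 CPM. Endothelial-gated cells held 0 UMIs in library 1, where 3 UMIs would be 3.88 CPM, and 1 UMI in library 2. A Thbs4 UMI was found in 72 of 327 fibroblasts (22.0%) and 46 of 379 (12.1%), or, once thinned to 1000 UMIs, in 48 of 300 (exact interval 12.04 to 20.6%) and 26 of 351 (4.90 to 10.7%). These intervals do not overlap.

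The Thbs4 message was concentrated further within those cells. Cells with 10 or more Thbs4 UMIs numbered 37 and 14 and held 93.2% and 89.1% of the fibroblast UMIs of the gene. The 3 highest cells held 29.7% in library 1 and 51.6% in library 2, and without them the ratio was -2.17. Cells with Thbs4 were deeper than those without it, at a median of 8702 against 4036 UMIs in library 1 and 7706.5 against 4714 in library 2. Thbs4 stayed 2-fold or more lower in library 2 in 14 of 14 alternative settings, with log2 ratios between -2.17 and -1.36.

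Other genes stood apart with Thbs4 in these fibroblasts, and the 8 named here were chosen after their values were seen, for ratios that were high in both libraries. The calcium channel gene Cacna1b stood at 114 CPM with and 3.94 CPM without Thbs4 in library 1, and at 114 and 0.874 CPM in library 2. Cyp26a1, which degrades retinoic acid, stood at 356 and 26.9 CPM and at 104 and 10.9 CPM. The tachykinin gene Tac2 (81.7 and 9.85, then 77.3 and 5.68 CPM) and the mesenchymal transcription factor gene Hand2 (370.02 and 84.7, then 189 and 48.5 CPM) showed the same order, as did G0s2, Aqp1, Igfbp2 and Hsd11b1. Among the members, Thbs2 was lower in the Thbs4-positive cells of both libraries (log2 -0.91 and -0.55). Postn turned from -0.81 in library 1 to 1.05 in library 2 (944 against 454 CPM) and Tnc from -0.17 to 0.81 (4954 against 2829 CPM), so neither had a common direction. Ccn3 (-1.15 and -1.01), Ccn2 (-0.64 and -0.22) and Sparc (-0.25 and -0.03) were also lower in both libraries and Spp1 higher (0.38 and 0.66), while Thbs1 (-0.66 and 0.03) and Ccn1 (-0.20 and 0.53) had no common direction.

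**Figure D2:**
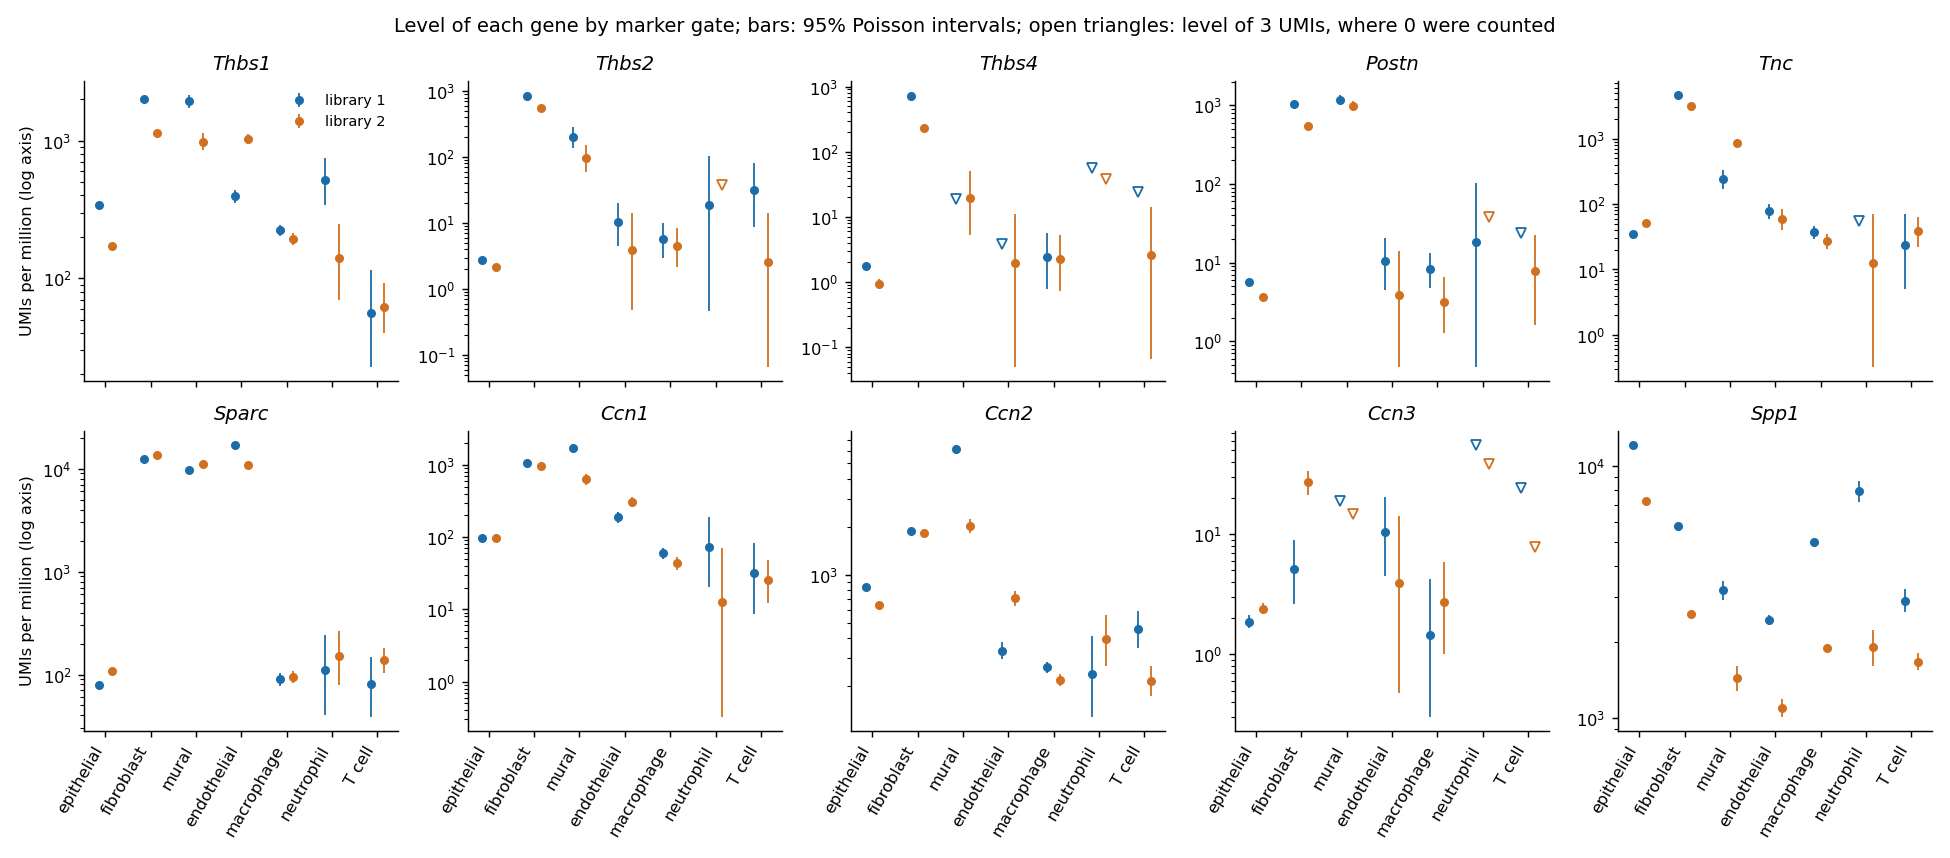
Level of each member in CPM (log axis, a separate scale in each panel) by marker gate, for library 1 (blue) and library 2 (orange), with 95% Poisson intervals. Open triangles mark the level of 3 UMIs where 0 were counted. Thbs2, Thbs4 and Tnc peak in fibroblasts, Postn in fibroblasts and mural cells, and Spp1 in epithelial-gated cells.

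Periostin, an integrin ligand that promotes collagen cross-linking, was led by fibroblasts and mural cells. Postn (chr3:54361109-54391037, plus strand) stood at 1057 CPM in fibroblasts of library 1 (1016 to 1099) and 541 CPM in those of library 2 (514 to 569). In mural cells it stood at 1189 CPM (1025 to 1371) and 992 CPM (860.2 to 1139). The intervals of the 2 gates overlapped in library 1, and mural cells stood above fibroblasts in library 2. The 3 highest mural cells held 34.6% and 42.1% of the mural Postn UMIs, a spread that the intervals do not cover. The fibroblast ratio was -0.97 (-1.06 to -0.87) and the mural ratio -0.26 (-0.55 to 0.03). In the epithelial, endothelial and macrophage gates Postn lay between 3.17 and 10.4 CPM. A Postn UMI was found in 69.4% and 47.0% of fibroblasts, or 41.7% (36.0 to 47.5) and 27.9% (23.3 to 32.9) once thinned, against 0 of 42 T cells (which allows up to 8.41%) and 0.725% of 138.

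Tenascin C, a hexameric matrix glycoprotein of healing wounds and tumor stroma, was led by fibroblasts. Tnc (chr4:63959785-64047015, minus strand) stood there at 4627 CPM (4540.1 to 4714) and 3205 CPM (3139 to 3272), a log2 ratio of -0.53. Epithelial-gated cells stood at 34.6 CPM (33.6 to 35.5) and 51.4 CPM (50.2 to 52.6), higher in library 2 with a log2 ratio of 0.56. In epithelial-gated cells thinned to 1000 UMIs that ratio was 0.12. A Tnc UMI was then found in 3.02% (2.65 to 3.42) and 3.31% (2.91 to 3.75) of them, with intervals that overlapped. Mural cells stood at 240.3 and 860 CPM, but 3 cells held 88.6% of the mural Tnc UMIs of library 2. Endothelial- and macrophage-gated cells held 30 to 76 Tnc UMIs, and 3 cells of library 1 held 80.0% and 48.7% of theirs. Without the 3 highest cells of each library the endothelial ratio turned from -0.40 to 0.45 and the macrophage ratio from -0.43 to 0.33. The direction of Tnc in those gates thus rests on a few cells.

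SPARC, a collagen chaperone of matrix assembly, was shared by fibroblasts, endothelial cells and mural cells. Sparc lies at chr11:55394500-55423183 on the minus strand. Fibroblasts stood at 12466 CPM (12324 to 12609) and 13535 CPM (13398 to 13672), and mural cells at 9725 and 11132 CPM. Endothelial-gated cells stood at 16796 CPM (16509 to 17088) and 10765 CPM (10482 to 11053). Endothelial cells thus stood above fibroblasts in library 1 and below them in library 2, with log2 ratios of -0.64 in the endothelium and 0.12 in fibroblasts. One endothelial cell of library 1 held 1564 of the 12977 Sparc UMIs, and the 3 highest held 22.8%. The endothelial ratio was -0.60 with the 3 highest cells per library left out and -0.38 in thinned cells. Epithelial-gated, macrophage-gated and T-cell-gated cells lay between 78.7 and 137 CPM.

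Of the CCN genes, Ccn1 and Ccn2, which bind integrins and heparan sulfate and are induced by YAP and TEAD, lie at chr3:145646976-145649981 (minus strand) and chr10:24595442-24598683 (plus strand). Both had their highest levels in mural cells and fibroblasts. Ccn1 stood at 1046 CPM (1005 to 1088) and 958 CPM (922 to 995) in fibroblasts, at 1688 and 634 CPM in mural cells, at 188 and 306 CPM in endothelial-gated cells and at 96.7 and 97.2 CPM in epithelial-gated cells. The 3 highest mural cells held 44.6% and 51.2% of the mural Ccn1 UMIs. The epithelial intervals of the libraries overlapped (log2 0.01), and the fibroblast ratio was -0.13. Ccn2 stood at 1880.02 CPM (1825 to 1936) and 1824 CPM (1774 to 1875) in fibroblasts, a log2 ratio of -0.04 whose interval (-0.10 to 0.01) included 0. Epithelial-gated cells stood at 837 and 647 CPM (-0.37) and macrophages at 262 and 219.8 CPM (-0.25). Epithelial markers in the macrophage gate stood at a median of 25.1% and 22.2% of their epithelial level, and Ccn2 at 31.3% and 34.0% of its own. With epithelial RNA subtracted at the marker median, the macrophage Ccn2 ratio turned to 0.48.

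Mural, T-cell-gated and endothelial-gated cells carried the larger Ccn2 differences, lower in library 2 in the mural and T-cell gates and higher in the endothelium. In mural cells Ccn2 stood at 6133 CPM (5753 to 6532) in library 1 and 2019 CPM (1829 to 2224) in library 2, with 51.0% and 58.6% of the UMIs in 3 cells. In that small gate 22.2% of 8805 genes were 2-fold apart. T-cell-gated cells stood at 457 and 217 CPM (-1.07), in a gate where 19.1% of 9521 genes were 2-fold apart. Those T-cell levels rest on 57 and 84 UMIs, with 78.9% and 40.5% of them in 3 cells. In endothelial-gated cells Ccn2 stood at 334 CPM (294 to 377) and 711 CPM (639.96 to 788), a log2 ratio of 1.09. That ratio was 0.61 without the 3 highest cells of each library, which held 31.8% and 43.5% of the UMIs, and 0.51 without doublet removal. It is therefore not 2-fold in every setting.

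Ccn3, a CCN protein often opposed to Ccn2 in fibrosis, lies at chr15:54745702-54754039 (plus strand) and was counted in few cells. Fibroblasts held 12 Ccn3 UMIs in library 1 (5.09 CPM, 2.63 to 8.90) and 75 in library 2 (27.0 CPM, 21.2 to 33.8), in 3.67% and 9.23% of cells. The log2 ratio was 2.20, and the 3 highest cells held 38.7% of the UMIs of library 2. It was 1.04 in cells thinned to 1000 UMIs, where 4 and 6 fibroblasts had a UMI. Without the 3 highest cells it was 1.86, at a level that no longer reached 20 CPM. Epithelial-gated cells stood at 1.87 and 2.41 CPM, and mural, neutrophil and T-cell gates at 0 UMIs, where 3 UMIs would be between 7.76 and 55.4 CPM.

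Osteopontin, a phosphoprotein ligand of CD44 and integrins, was led by epithelial-gated cells. Spp1 (chr5:104435118-104441050, plus strand) stood there at 12125 CPM (12107 to 12143) and 7274 CPM (7259 to 7288), a log2 ratio of -0.74. Epithelial-gated cells held 88.5% and 89.1% of the Spp1 UMIs of all cells used. Fibroblasts stood at 5794 and 2583 CPM (-1.16), macrophages at 5002 and 1887 CPM (-1.41), endothelial-gated cells at 2435 and 1091 CPM (-1.16) and T-cell-gated cells at 2912 and 1665 CPM (-0.81). The gene was thus lower in library 2 in each of the 7 gates, T cells included. The median cell carried 78.2 and 49.3 Spp1 UMIs per 10000 in the epithelial gate, 31.0 and 15.99 in fibroblasts, 19.2 and 9.42 in macrophages and 22.5 and 11.5 in T cells.

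Epithelial transcripts were counted in every gate, and Spp1 is set beside them. In T-cell-gated cells Spp1 stood at 24.0% and 22.9% of its epithelial level, and the 9 epithelial markers at a median of 33.0% and 24.8% of theirs. In endothelial-gated cells Spp1 stood at 20.1% and 15.004%, and the markers at 16.1% (12.7 to 19.8 over the 9) and 15.8% (5.30 to 21.6). In macrophages Spp1 stood at 41.3% in library 1, above the marker range (median 25.1%, 12.5 to 34.1), and at 25.9% in library 2, just above its highest value (22.2%, 9.80 to 25.8). In fibroblasts Spp1 stood at 47.8% and 35.5%, above all 9 markers in both libraries (17.1% to 23.8% and 13.6% to 24.2%). These markers also set the gates, with a floor of 20 per 10000 UMIs in the epithelial gate and a ceiling of 40 outside it, so the gating itself lowers their percentages, which does not hold for Spp1, and the comparison and the subtraction carry that limit. With epithelial RNA subtracted at the marker median, Spp1 stood at 4207 and 1611 CPM in fibroblasts (log2 -1.38) and 2616 and 352 CPM in macrophages (-2.89), and none was left in T cells of either library or in endothelial-gated cells of library 2.

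Once depth was equalised, the share of macrophages with a Spp1 UMI was no higher than that of T cells. Thinned to 1000 UMIs, it was 85.5% (367 of 429, 81.9 to 88.7) in library 1 and 64.3% (319 of 496, 59.9 to 68.5) in library 2, a difference of -21.2 percentage points. T-cell-gated cells stood at 90.5% (38 of 42, 77.4 to 97.3) and 70.3% (97 of 138, 61.9 to 77.8), with median depths of 1779.5 and 1563 UMIs against 2515 and 2771 in macrophages. Without thinning, macrophages stood at 94.5% and 87.4% and T cells at 95.8% and 83.8%. The thinned shares are thus not read as expression, and the summed macrophage levels beside the markers are given above. Single macrophages went far higher: the highest held 1014 Spp1 UMIs in library 1 and 321 in library 2, and the 3 highest held 22.4% and 16.8% of the UMIs.

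**Figure D3:**
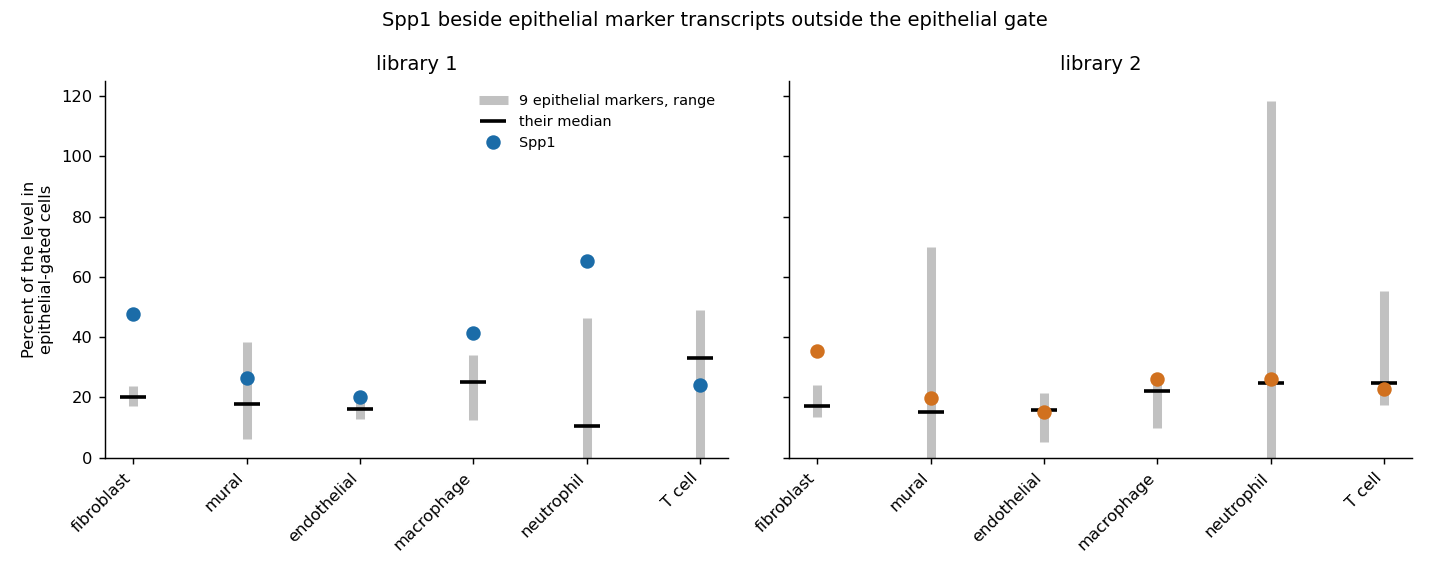
Level of Spp1 (points) and of 9 epithelial markers (grey bars, range; black dash, median) in 6 gates as a percentage of the level in epithelial-gated cells of the same library. Spp1 lies above the marker range in fibroblasts of both libraries and in macrophages and neutrophils of library 1, just above it in macrophages of library 2 and endothelial cells of library 1, and within it elsewhere.

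Over the 4 gates of at least 50 cells per library, 8 of 10 members had the same highest gate in both libraries, and it was the fibroblast gate for 7 of them. The other two were Sparc and Ccn3, both led by the endothelium in library 1 and by fibroblasts in library 2. For Ccn3 the endothelial and fibroblast intervals overlapped in library 1. Adding the mural, neutrophil and T-cell gates left 7 of 10 with the same highest gate, 4 of them in fibroblasts, since Postn and Ccn2 stood highest in mural cells in both libraries and Ccn1 in library 1.

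Within the fibroblast gate, members were sorted by a myofibroblastic share, the UMIs per 10000 of Acta2, Tagln, Myl9, Tpm2, Cnn1, Lrrc15, Thy1 and Col12a1, none of which is a member. The 164 and 190 cells at or above the median of their library were compared with the 163 and 189 below it. Ccn1 stood at 1366 against 644 CPM in library 1 (log2 1.08) and 1442 against 400.4 CPM in library 2 (1.85). Ccn2 stood at 2332 against 1311 CPM (0.83) and 2657 against 867 CPM (1.62). Thbs1 stood at 2741 against 1075 CPM (1.35) and 1468 against 764 CPM (0.94). These 3 genes were thus higher in the more myofibroblastic cells of both libraries, as were Thbs4 (0.94 and 1.76), Thbs2 (0.53 and 0.87) and Sparc (0.36 and 0.52). Spp1 was lower there (-0.30 and -0.34). With the 3 cells per library that held the most UMIs of the gene left out, an alternative chosen after seeing the data, the Thbs1 values were 0.83 and 1.12, the Thbs4 values 1.54 and 0.33 and the Spp1 values -0.07 and -0.27.

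Tnc did not follow that order in both libraries (-0.10 and 0.39), and Postn followed it weakly in library 1 (1174 against 910 CPM, 0.37) and strongly in library 2 (784 against 261 CPM, 1.59). Between the libraries, the cells below the median carried the larger differences in Postn (-1.80 against -0.58 on the other side) and Tnc (-0.80 against -0.32), and without the 3 highest cells the values were -1.69 against -0.57 and -0.86 against -0.45. For Thbs1 (-0.49 below and -0.90 at or above the median) and Thbs4 (-2.21 and -1.39) the order turned without those cells, to -0.76 and -0.47 for Thbs1 and to -1.29 and -2.50 for Thbs4. Ccn1 (-0.68 below and 0.08 at or above the median) and Ccn2 (-0.60 and 0.19) differed in direction between the sides. Thbs2 stood at -0.81 and -0.47, Sparc at 0.02 and 0.19, Spp1 at -1.15 and -1.19 and Ccn3 at 1.36 and 2.63. Cells at or above the median were deeper, at 5685.5 against 4237 UMIs and 5633 against 4575 UMIs, and the cut stood at 39.1 and 25.3 marker UMIs per 10000, so the sides do not hold the same range in both libraries.

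**Figure D4:**
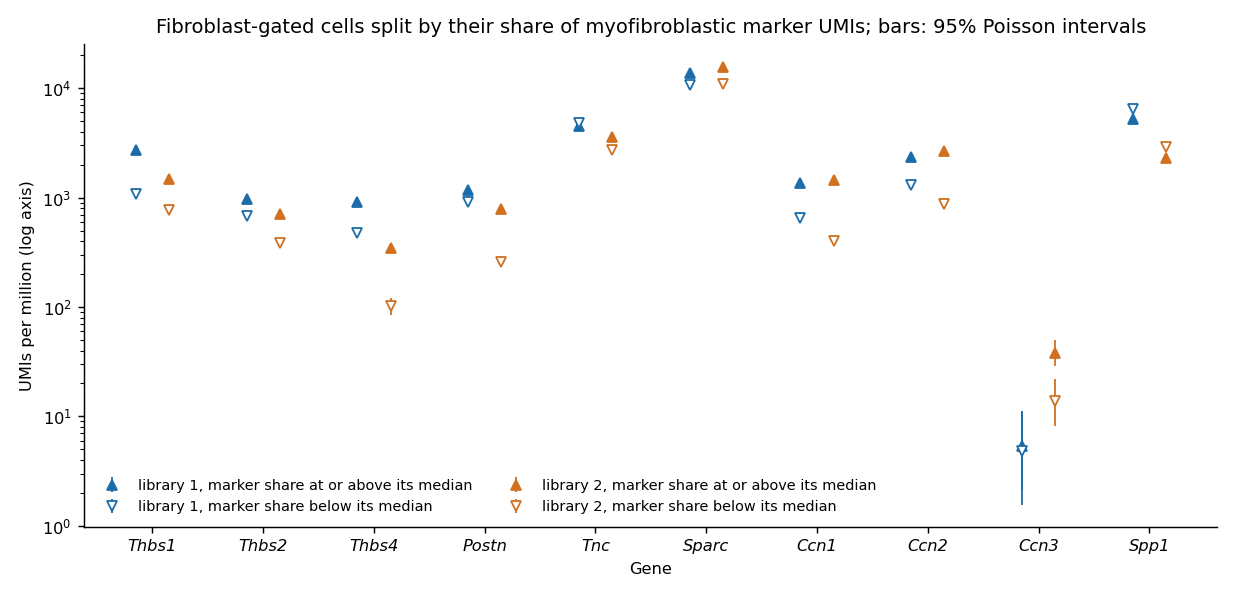
Level of each member in CPM (log axis) in fibroblast-gated cells at or above (filled, pointing up) and below (open, pointing down) the median myofibroblastic marker share of their library, with 95% Poisson intervals. Filled points lie above open ones for Thbs1, Thbs2, Thbs4, Postn, Sparc, Ccn1 and Ccn2 in both libraries, and below them for Spp1.

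A split by inflammatory fibroblast genes (Cxcl12, Il6, Lif, C3, Dpt, Col14a1, Il33, Has1 and Pi16) ordered some members as the myofibroblastic split did and others differently. Sparc stood at 13555 against 11373 CPM in library 1 and 15525 against 11273 CPM in library 2 (0.25 and 0.46), and Ccn1 was also higher on the inflammatory side (0.33 and 0.40). Both were higher on the myofibroblastic side too. So was Thbs4 (here 0.79 and 0.16, but 0.53 and -1.31 without the 3 highest cells). Spp1 was lower on the inflammatory side (-0.47 and -0.65), as on the myofibroblastic one. Thbs2 was slightly lower (-0.12 and -0.07), and Thbs1 (-0.32 and 0.22) and Ccn2 (-0.02 and 0.25) had no common direction. Tnc stood at 4271 against 4984 CPM (-0.22) and at 2368 against 4157 CPM (-0.81), and Postn at 990 against 1124 CPM (-0.18) and 407 against 693 CPM (-0.77). Periostin and tenascin C thus stood lower on the inflammatory side in both libraries. Without the 3 highest cells the library 1 values were only -0.10 for Postn and -0.05 for Tnc. Ccn3 stood at 7.63 against 2.55 CPM and 41.2 against 10.8 CPM, from 3 to 61 UMIs a side. Cells on the inflammatory side were deeper, with medians of 5421 against 4237 and 5641 against 4678 UMIs. The cut stood at only 2.97 and 5.30 marker UMIs per 10000. At these depths a few UMIs decide the side of a cell, so the sides are a coarse sorting.

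Across single fibroblasts, some pairs of members were related alike in both libraries and others were not. Spearman's rho over 327 and 379 cells was 0.34 and 0.40 for Ccn1 with Ccn2, 0.35 and 0.27 for Thbs1 with Ccn1, and 0.34 and 0.37 for Thbs1 with Ccn2. It was 0.42 and 0.37 for Thbs2 with Sparc, 0.34 and 0.34 for Thbs2 with Tnc, and 0.30 and 0.42 for Postn with Tnc. It was lower in library 2 for Postn with Sparc (0.31 and 0.11) and for Tnc with Sparc (0.27 and 0.05), and Sparc with Spp1 turned from 0.15 to -0.15. Ccn2 with Tnc stood at -0.07 and 0.02. Cells of a library share its preparation, and depth differs from cell to cell, so these values are descriptions.

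In epithelial-gated cells the members split with epithelial junction genes. Cells were called Epcam-high with at least 2 of Epcam, Cldn4, Cldn7 and Ocln and at least 8 of their UMIs per 10000, which 1152 and 768 cells met, and the other 6760 and 6551 were Epcam-low. Thbs1 stood at 670 against 273 CPM in library 1 and 391 against 143 CPM in library 2 (log2 1.29 and 1.45). Ccn2 stood at 1471 against 710.1 CPM and 1134 against 584 CPM (1.05 and 0.96). Spp1 went the other way, at 6459 against 13262 CPM and 3819 against 7717 CPM (-1.04 and -1.01), and so did Tnc, at 19.5 against 37.6 CPM and 17.4 against 55.8 CPM (-0.91 and -1.63). Sparc was also lower in Epcam-high cells (-0.36 and -0.76), while Ccn1 had no common direction (0.58 and -0.10). Over single epithelial-gated cells Spearman's rho was 0.28 and 0.24 for Thbs1 with Ccn2 (7912 and 7319 cells). Both sides had similar depth, with medians of 12792 and 14160 UMIs in library 1 and 13030.5 and 14305 in library 2.

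Other matricellular genes went both ways in fibroblasts. Of a list of 24, 13 reached 20 CPM in fibroblasts, 3 stood 2-fold higher in library 2 (1.04% of all 8556 genes at that level did) and 2 stood 2-fold lower (1.47% of genes), with a median log2 ratio of -0.14 against 0.04 over all these genes. Sparcl1, the SPARC relative hevin, stood at 692 and 197 CPM (-1.80), and Fbln7, a fibulin, at 90.4 and 37.4 CPM (-1.25). Fbln1 (385 and 201 CPM, -0.93) and Smoc2 (161 and 103 CPM, -0.64) followed. Tgfbi, a collagen-binding protein induced by TGF-β, stood at 94.3 and 244 CPM (1.36), Ccn5 at 16.1 and 51.4 CPM (1.61), Smoc1 at 5.94 and 20.1 CPM (1.61) and Ogn, osteoglycin, at 10.6 and 20.5 CPM (0.89). Fibroblasts were the highest of 7 gates in both libraries for 8 of the 16 listed genes that reached 20 CPM in a gate, and macrophages were for Tgfbi, at 1289 and 1594 CPM.

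Receptors for these proteins lay near the median of all genes in fibroblasts. Of a list of 22, 15 reached 20 CPM and 1 differed 2-fold, Itgb3, the β3 integrin chain, at 38.6 and 109.7 CPM (1.48), against 2.51% of all 8556 genes at that level, and the list median was 0.13 against 0.04. Itga5, the α5 chain that pairs with β1, stood at 450.5 and 693 CPM (0.62), Itga9 at 169 and 214 CPM (0.34) and Notch1 at 56.0 and 70.5 CPM (0.33). Itgb5 stood at 737 and 463 CPM (-0.67), Lrp1, an endocytic receptor that clears thrombospondins, at 2232 and 1812 CPM (-0.30), Stab1, which takes up SPARC, at 44.2 and 36.3 CPM (-0.27) and Itgav at 217 and 194 CPM (-0.16). Over the gates, Cd44, the osteopontin receptor, stood highest in epithelial-gated cells (1655 and 1479 CPM), and so did Sdc1, Sdc4, Itga3 and Itga6. These were chosen after their values were seen. Itgb3, Stab1 and Notch1 stood highest in endothelial-gated cells, and Itgav, Itgb5 and Itga8 in mural cells.

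Targets of YAP and TEAD other than Ccn1 and Ccn2 had a fibroblast median of -0.07, with all 22 at 20 CPM and 1 of them 2-fold lower in library 2, against a median of 0.04 and 1.47% 2-fold lower over all 8556 genes at that level. That gene was Igfbp3, an insulin-like growth factor binder, at 5467 and 2327 CPM (-1.23). Amotl2 (-0.54), Crim1 (-0.52) and Ankrd1 (115 and 82.7 CPM, -0.48) came next, and Ajuba (0.36), Tgfb2 (0.36), Fjx1 (0.34) and Ptpn14 (0.23) stood at the other end. Ccn1 and Ccn2 themselves stood at -0.13 and -0.04, so most of these targets, like the pair, lay near the median of all genes.

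Over the 7 gates and 2 libraries (14 points, which share libraries and include small gates), the 3 genes most like each member in level were picked. Pearson's r of log2 CPM plus 1 was highest for Thbs4 with Lum (0.99), which is itself a marker of the fibroblast gate, and then Adcyap1r1 and Cpz. Postn was closest to Lhfp (0.98), Acta2 (0.97) and Ednra (0.96), and Ccn2 to Sec13, Tpm1 and Mylk (0.94 to 0.95). Sparc was closest to Prickle2, Jam3 and Sgce, Tnc to Eln, Serpinf1 and Cnpy2, and Thbs2 to Dkk3, Cpxm1 and Wls. Thbs1 was closest to Cpxm2 (0.93), its fellow member Ccn1 (0.92) and Atoh8 (0.91), and Ccn1 to Ckap4, Kremen1 and Tgfb2. Spp1 was closest to Socs5, Scara3 and Tfg (0.92 to 0.93), and Ccn3, which reached 50 CPM in no gate, to Npr2, Myh10 and Flrt2 (0.84 to 0.86).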

How the data were processed

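The deposited matrix holds whole UMI counts of genes by barcodes. The submitters' processing notes name Cell Ranger 8.0.0 and the mm10 build. Cells with at least 500 UMIs, at least 200 genes and under 20% mitochondrial UMIs were kept. Scrublet (in scanpy 1.11.5) with automatic thresholds marked 1 and 0 cells, so the highest scores were removed at 0.8% per 1000 cells. Gates needed at least 3 markers and a share of marker UMIs set from marker distributions after the data were seen. Epithelial markers had to lie below 40 per 10000 UMIs outside the epithelial gate. Epithelial-gated cells needed at least 20 per 10000 and had to lie below 0.25 of the marker threshold of every other gate. This rule leaves out cells with more stromal or immune marker UMIs, so it can lower such genes in the epithelial gate. A cell of the mural and fibroblast gates was counted as mural, and one of the lymphatic and blood endothelial gates as lymphatic. Cells of any other 2 gates were left out. Counts were summed per gate and library and scaled to CPM. A member was called different at 2-fold with at least 20 CPM in a library. Members and lists were chosen with earlier results of these data known. All members were named in each gate of at least 50 cells, list genes by the 4 highest and 4 lowest fibroblast ratios, and companions as the 3 highest correlations. A single library stands behind each number, so nothing was tested between them. The 2-fold call was run on simulated fibroblast sums that carry counting error only. They hold no spread between cells or animals, so they check the calculation and not the calls made here. Alternatives were TMM factors from edgeR 4.0.16, median-of-ratios factors, added CPM, no low filter, per-cell means, thinning, top cells left out, doublet handling, gates, and subtracted epithelial RNA.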

Additional observations from a re-analysis of the deposited data

Results flagged for a closer look

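The Thbs1 and Ccn2 differences between the libraries ran in opposite directions in different cell types. For Thbs1 the log2 ratio of library 2 over library 1 was -0.98 in epithelial-gated and -0.81 in fibroblast-gated cells, and 1.39 in endothelial-gated cells. For Ccn2 it was -0.37 in epithelial-gated and -0.25 in macrophage-gated cells (0.48 with epithelial RNA subtracted), and 1.09 in endothelial-gated cells. The counting intervals of the libraries lay apart in each of these gates, but with 1 library per number the difference between cell types was not tested.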

How the results depend on the processing

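No paired analysis was possible because each library number holds 1 sample, and no replicate could be left out. The count of members 2-fold apart in fibroblasts stayed within 1.5 times its main value in the alternatives. In macrophages the count of 1 became 2 with no filter on low genes, 0 for the mean of per-cell shares, 0 with a stricter gate and 2 with an epithelial marker ceiling of 20 per 10000, an alternative chosen after seeing the data. In epithelial-gated cells 0 became 1 with the stricter gate, where Thbs1 was at -1.07, and in endothelial-gated cells 3 became 7 with no filter on low genes. The Spp1 share difference in macrophages of -21.2 percentage points became -7.09 unthinned and -11.4 thinned to 2000 UMIs. The cause of these shifts was not tested. Of the values for single members under an alternative, 339 moved by less than their counting interval and 133 by more, and none that was 2-fold apart changed sign. Without doublet removal the fibroblast Spp1 ratio was -0.75, and with the stricter gate the macrophage one was -0.87. Postn reached 2-fold in 2 of 14 alternatives, with ratios between -1.10 and -0.79. Depth limits Ccn3, and the mural, neutrophil and T-cell gates hold too few cells for firm values.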
